A study of Mus musculus with 8 samples.

Results

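The 9 interferon response genes described here, *Isg15*, *Ifit1*, *Ifit3*, *Rsad2*, *Bst2*, *Ifitm3*, *Irf7*, *Irf1* and *Stat2*, were taken by gene name from a table of 54532 genes, of which 22046 were protein-coding, and all 9 were found. The samples were whole testes, 1 library per mouse, from 4 controls (Sync-Spdya fl/fl, genotype Spdyafl/fl) and 4 knockouts (Sync-Spdya cKO, genotype Spdyafl/fl;Ddx4-CreERT2). All 8 mice carried the floxed *Spdya* alleles on a C57BL/6J background. All had their spermatogenesis synchronized with an inhibitor of retinoic acid (RA) synthesis given daily for 7 days from postnatal day 2, followed by RA on postnatal day 9. All received tamoxifen on RA7.5 and RA8.5 per the labels, and testes were collected on RA11.5, when most germ cells are in mid-late pachynema. Tamoxifen activates the germ-cell Cre of the cKO mice, which deletes exon 2 of *Spdya*, a gene for an activator of cyclin-dependent kinases. The controls carried no Cre, so an effect of the deletion and one of the active Cre cannot be told apart here. *Spdya* itself had 20.8, 21.0, 23.8 and 19.7 FPKM in the controls and 30.5, 22.2, 26.1 and 17.7 FPKM in the cKO mice, and since only 1 exon is removed this level gave no check of the labels.

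Interferons are secreted proteins, and those of types I and III are made by a cell after its sensors meet foreign or misplaced nucleic acid. Type I and III interferons act through JAK kinases on a complex that holds STAT2 and IRF9, which binds interferon-stimulated response elements (ISREs) in its target genes, while interferon-gamma acts on gamma-activated sites (GAS). The targets include proteins that block viral entry, translation and release, and also the factors STAT2 and IRF7, through which the response reinforces itself. In the testis the somatic cells, Sertoli and Leydig cells and macrophages among them, are known to make antiviral proteins in answer to interferon.

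The 9 genes did not separate the genotypes, yet most of them varied several-fold between mice of the same genotype. Control 1, control 2 and cKO 1 were the 3 highest libraries for 7 of the 9 genes (all but *Irf1* and *Ifitm3*), against 5.39% of the 15937 protein-coding genes tested. *Ifit1*, which had the widest range, ran from 0.253 FPKM in control 4 to 4.72 FPKM in cKO 1, or 18.7-fold. *Irf1* had the narrowest, 1.58-fold.

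Values are FPKM, fragment counts divided by gene length and by a scaled library size, as the authors deposited them. Between 13978342 and 19583091 fragments fell on genes in each library, and 1 fragment on a gene of 1 kilobase was worth 0.0516 to 0.0763 FPKM. Control 1 stood apart from the others: mitochondrial genes held 0.464% of its fragments, against 2.20 to 3.74% in the other 7 libraries, and its correlation with any other library over the genes tested reached at most 0.971, against 0.982 to 0.988 for the others. The counts of highest libraries and several of the results on listed genes are therefore also given without control 1. The labelled tissue matched most of its markers: *Hspa2*, a chaperone of pachytene spermatocytes, lay between 253 and 451 FPKM in all 8 libraries, and the spermatid markers summed to at most 1.17 FPKM. Of the other pachytene markers listed, *Piwil1*, *Sycp3* and *Ldhc* lay between 90.6 and 631 FPKM and *Adam3* between 2.28 and 8.79 FPKM. *Hist1h1t*, whose protein H1t the paper used to stage these cells, had only 0.21 to 0.89 FPKM.

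The letters through which interferon factors bind were present in the promoters of most of the 9 genes. RefSeq promoters on GRCm38.p6, from 250 bases before to 50 bases after the transcription start, were searched on both strands for the ISRE core GAAANNGAAA and for the GAS letters TTCNNNGAA. The ISRE core was found in 7 of the 9 genes (77.8%), against 436 of the 12271 tested genes with a promoter entry (3.55%) and 3.44% of all promoter windows. The GAS letters were found in 3 of the 9 (33.3%, *Bst2*, *Ifitm3* and *Irf1*), against 8.19% of tested genes and 8.3% of all windows. The promoter stretches that hold matches follow, and whether these letters bear on the levels in the 8 libraries was not tested. Each is written 5′ to 3′ on the strand of its gene, with the matched letters in capitals, and an ISRE core on the other strand reads with TTTC in place of GAAA.
Isg15 (chr4:156200860-156200911, minus strand): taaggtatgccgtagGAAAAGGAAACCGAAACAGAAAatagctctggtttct
Ifit1 (chr19:34640770-34640828, plus strand): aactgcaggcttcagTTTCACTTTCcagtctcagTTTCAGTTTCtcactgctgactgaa
Ifit3 (chr19:34583358-34583431, plus strand): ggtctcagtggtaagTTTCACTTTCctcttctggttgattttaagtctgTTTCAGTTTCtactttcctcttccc
Rsad2 (chr12:26456548-26456587, minus strand): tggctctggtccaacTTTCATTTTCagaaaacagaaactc
Bst2 (chr8:71537572-71537623, minus strand): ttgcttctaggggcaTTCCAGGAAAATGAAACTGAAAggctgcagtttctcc
Stat2 (chr10:128270261-128270300, plus strand): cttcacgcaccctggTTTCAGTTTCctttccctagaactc
Irf1 (chr11:53769909-53769947, plus strand): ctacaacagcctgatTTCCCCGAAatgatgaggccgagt
Ifitm3 (chr7:141010716-141010742, minus strand): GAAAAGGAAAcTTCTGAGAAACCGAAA

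*Isg15* held 3 overlapping ISRE cores between 78 and 57 bases before its start. *Ifit1* and *Ifit3*, neighbours on chromosome 19, held 2 each. *Bst2* held 2 overlapping cores, the first of which also overlapped a GAS match, and *Ifitm3* held 2 cores and a GAS match, all within the first 29 bases after its start. *Rsad2* and *Stat2* held 1 core each. *Irf1* held no ISRE core but a GAS match 90 to 82 bases before its start, and neither its second RefSeq window nor the *Irf7* window held any of these letters. A match is a run of letters and not a measured binding site.

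**Figure D1:**
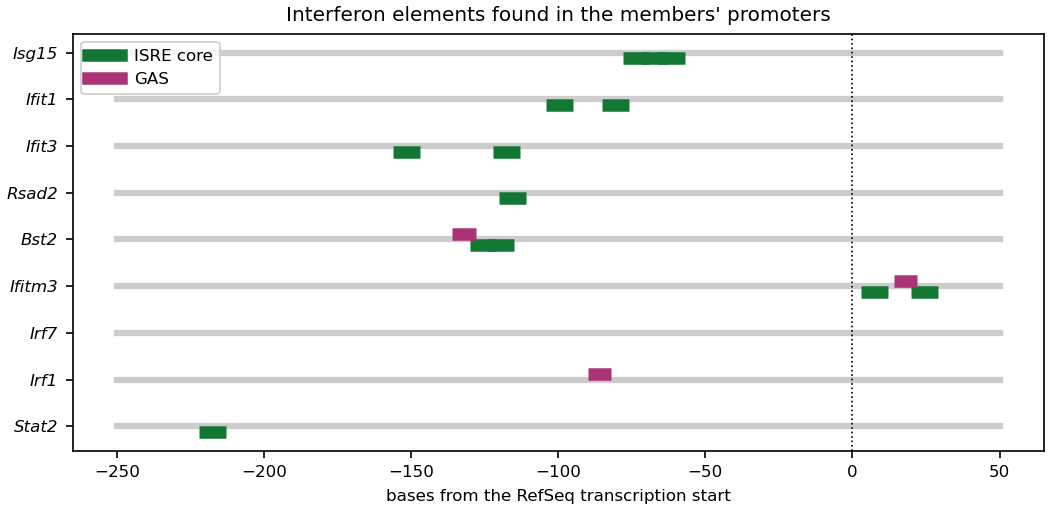
Positions of ISRE cores (green) and GAS letters (purple) along the promoter of each of the 9 genes (grey lines), in bases from the RefSeq transcription start (dotted line); the second *Irf1* window, which held no match, is not drawn. 7 genes hold an ISRE core, *Irf1* holds only a GAS match, and *Irf7* holds neither.

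*Isg15* (chromosome 4, 156199424 to 156200818, GRCm38, minus strand) encodes a ubiquitin-like protein that is attached to other proteins. It had 9.79, 10.5, 2.20 and 1.21 FPKM in controls 1 to 4 and 9.82, 3.81, 3.22 and 1.79 FPKM in cKO 1 to 4. The first 2 controls and cKO 1 lay together near 10 FPKM, the other 5 libraries lay below 4 FPKM, and the genotypes overlapped. The log2 fold change of cKO over control, on log2(FPKM + 0.1) as for all genes here, was -0.09 (standard error 0.70, 95% interval -1.66 to 1.47, limma adjusted p = 0.972).

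*Ifit1* and *Ifit3* (chromosome 19, 34640871 to 34650009 and 34583531 to 34588731, both plus strand) encode proteins that hold back the translation of foreign RNA. *Ifit1* had 2.70, 4.40, 0.674 and 0.253 FPKM in the controls and 4.72, 0.707, 0.603 and 0.333 FPKM in the cKO mice. Within the cKO group cKO 1 lay far above the other 3, and within the controls replicates 1 and 2 lay far above 3 and 4. Its fold change was -0.39 on the log2 scale (standard error 0.88, 95% interval -2.35 to 1.58, limma adjusted p = 0.909). *Ifit3* had 1.31, 2.91, 0.183 and 0.385 FPKM in the controls and 2.78, 0.682, 1.12 and 0.844 FPKM in the cKO mice, so that its lowest 2 libraries were both controls. Its log2 fold change was 0.54 (standard error 0.68, 95% interval -0.98 to 2.06, limma adjusted p = 0.819). *Ifit3* has a near-identical neighbour, *Ifit3b*, between which reads can be split. *Ifit3b* had 0.343, 0.689, 0 and 0.0305 FPKM in the controls and 0.696, 0.344, 0.415 and 0.0883 FPKM in the cKO mice, with control 2 and cKO 1 highest as in *Ifit3*.

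*Rsad2* (chromosome 12, 26442746 to 26456452, minus strand) encodes viperin, an enzyme that makes a chain-terminating nucleotide. It was the lowest of the 9, with 0.651, 1.08, 0.207 and 0.267 FPKM in the controls and 1.46, 0.260, 0.328 and 0.312 FPKM in the cKO mice. Every library except control 1, control 2 and cKO 1 stood below 0.4 FPKM. The log2 fold change was -0.00 (standard error 0.54, 95% interval -1.21 to 1.20, limma adjusted p = 0.999). These low levels still rested on 14 to 123 fragments per library. Likewise *Isg15* rested on 15 to 144, *Ifit1* on 11 to 243 and *Ifit3* on 5 to 94.

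The 2 effectors of the membrane differed from each other. *Bst2* (chromosome 8, 71534255 to 71537456, minus strand) encodes tetherin, which holds budding virus at the cell surface, and it had the highest level of the 9. It had 41.2, 50.6, 22.2 and 15.7 FPKM in the controls and 40.7, 30.7, 26.6 and 29.0 FPKM in the cKO mice. The same 3 libraries were highest, and 2 controls were the lowest. Its log2 fold change was 0.10 (standard error 0.33, 95% interval -0.62 to 0.82, limma adjusted p = 0.938). *Ifitm3* (chromosome 7, 141009586 to 141010770, minus strand) encodes a membrane protein that blocks viral fusion and is also made by cells with no interferon signal. It had 6.64, 23.3, 10.3 and 10.3 FPKM in the controls and 15.6, 16.4, 18.2 and 26.0 FPKM in the cKO mice. Here control 1 was the lowest library and cKO 4 the highest, and the groups overlapped through control 2 alone. Its log2 fold change was 0.72 (standard error 0.32, 95% interval -0.00 to 1.44, unadjusted p = 0.051, limma adjusted p = 0.454). An exact permutation test over the 70 assignments of libraries gave p = 0.114 (two-sided), where the smallest p it allows is 0.0286. Without control 1 the log2 fold change was 0.46 (limma adjusted p = 0.491).

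*Irf7* (chromosome 7, 141262706 to 141266481, minus strand), which switches on the interferon genes once a response has begun, had 5.92, 10.3, 3.56 and 1.16 FPKM in the controls and 9.14, 4.31, 3.49 and 2.56 FPKM in the cKO mice. Its controls thus spanned 8.83-fold, from the highest to the lowest of all 8 libraries. The log2 fold change was 0.11 (standard error 0.59, 95% interval -1.19 to 1.41, limma adjusted p = 0.962). The gene overlaps *Phrf1* on the opposite strand, which had 14.2 to 17.2 FPKM, and whether counting used strand is not given in the sources used here.

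*Stat2* (chromosome 10, 128270559 to 128292849, plus strand), the subunit of the interferon complex that serves type I and III signals, had 10.8, 14.3, 7.13 and 6.11 FPKM in the controls and 16.4, 9.14, 8.73 and 7.36 FPKM in the cKO mice. With up to 1879 fragments per library it was the most deeply counted of the 9, and it kept the same 3 libraries on top. Its log2 fold change was 0.13 (standard error 0.30, 95% interval -0.54 to 0.79, limma adjusted p = 0.913). *Irf1* (chromosome 11, 53770014 to 53778374, plus strand), a factor that also answers interferon-gamma and inflammatory cytokines, had 6.66, 8.21, 5.20 and 5.74 FPKM in the controls and 8.20, 7.09, 6.71 and 7.79 FPKM in the cKO mice. Control 2 and cKO 1 were again highest, but by little, and cKO 4 came next. Its log2 fold change was 0.22 (standard error 0.15, 95% interval -0.11 to 0.55, limma adjusted p = 0.636). *Irf1* overlaps *Gm17334* on the opposite strand, at 0.195 to 0.673 FPKM.

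**Figure D2:**
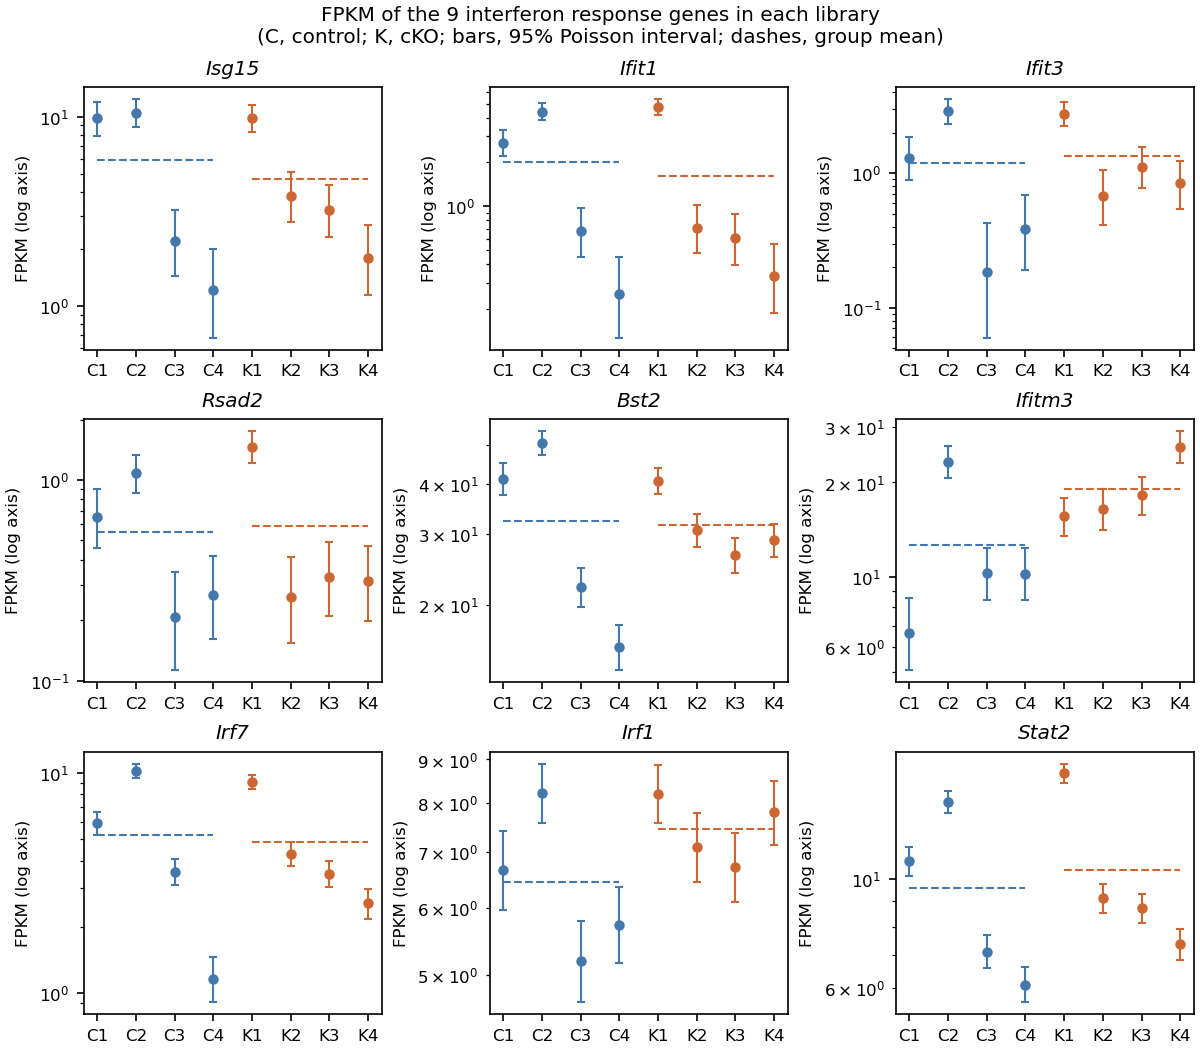
FPKM (log axis) of the 9 genes in the 4 control (C1 to C4, blue) and 4 cKO libraries (K1 to K4, orange), with 95% Poisson intervals of the fragment count and the group mean as a dashed line. C1, C2 and K1 are the 3 highest points in 7 of the 9 panels, the exceptions being *Irf1* and *Ifitm3*.

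None of the 9 genes was called different between the genotypes by limma, where a call needed an adjusted p under 0.05 together with a log2 fold change past 1 in either direction. Among the 15937 genes tested 2 were called, or 0.0125%. None of the 9 had an unadjusted p below 0.05 in limma, nor with voom on the recovered fragments, while 6.23% of all genes were higher and 4.86% lower in the cKO mice at that level. In none of the 9 did the groups separate without overlap, which 6.32% of all genes did. The log2 fold change was above 0 in 6 genes and below 0 in 3, with a median of 0.11 against 0.02 over all genes tested. The intervals were wide: for *Isg15*, *Ifit1*, *Irf7* and *Rsad2* they reached past 1 in both directions, and for *Ifit3* past 2 upward, so that a 2-fold change was not detectable in these genes. For *Irf1*, with an interval of -0.11 to 0.55, and for *Stat2* and *Bst2* a 2-fold change in either direction lay outside the interval.

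**Figure D3:**
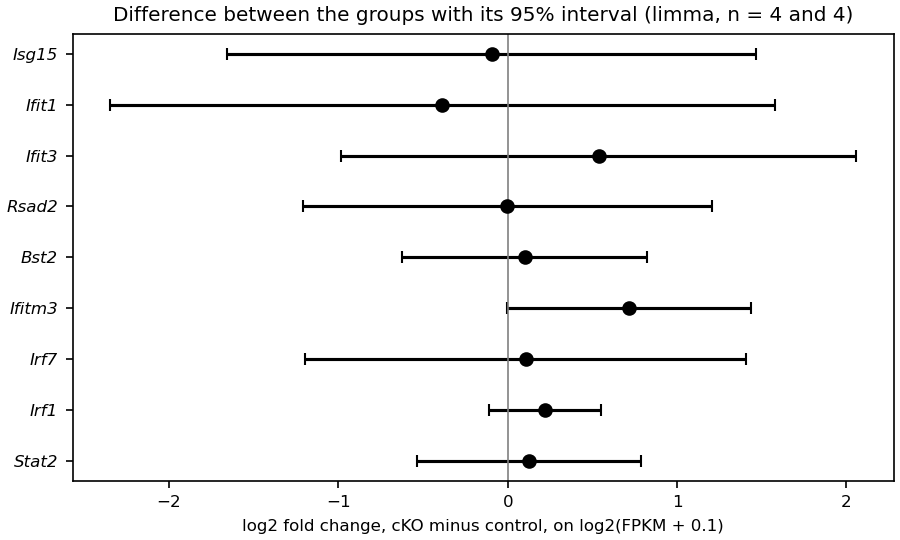
Log2 fold change of cKO over control for each of the 9 genes (points) with its 95% interval (bars) from limma on log2(FPKM + 0.1), 4 libraries per group. Every interval includes 0, and that of *Ifitm3*, -0.00 to 1.44, does so at its edge.

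The spread between mice of 1 genotype was large compared with other genes. The within-group standard deviation of log2(FPKM + 0.1) had a median of 0.95 over the 9 genes, against 0.24 over all genes tested. It was 1.61 for *Ifit1*, and only 0.132% of the genes tested had a larger one. The values were 1.28 for *Isg15* (0.383% larger), 1.23 for *Ifit3* (0.452%), 1.06 for *Irf7* (0.897%) and 0.95 for *Rsad2* (1.49%). *Bst2*, *Ifitm3* and *Stat2* stood at 0.58, 0.58 and 0.53, which 7.84, 7.96 and 10.6% of genes exceeded. *Irf1*, at 0.22, was an ordinary gene in this respect (57.6%).

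Counting error did not cover this spread. *Ifit1* in control 4 rested on 11 fragments, whose 95% Poisson interval of 0.126 to 0.452 FPKM lay wholly below that of the 212 fragments in control 2, 3.83 to 5.04 FPKM. Of the 6 pairs of controls, the intervals were separate in 6 for *Bst2* and *Irf7*, in 5 for *Ifit1*, *Ifit3* and *Stat2*, in 4 for *Isg15*, *Irf1* and *Rsad2*, and in 3 for *Ifitm3*. Of the 6 pairs of cKO mice they were separate in 5 for *Irf7* and *Stat2*, in 4 for *Isg15*, in 3 for the other members except *Irf1*, and in 1 for *Irf1*. These intervals cover counting error only, and the share of separate pairs over all genes was not counted. Whole libraries of the same genotype also differed by more than counting error. Their mean squared deviation ran from 3.94 times the sampling variance (cKO 2 and cKO 3) to 81.7 times (control 1 and control 4). Separate intervals were therefore not shown to be particular to these genes.

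**Figure D4:**
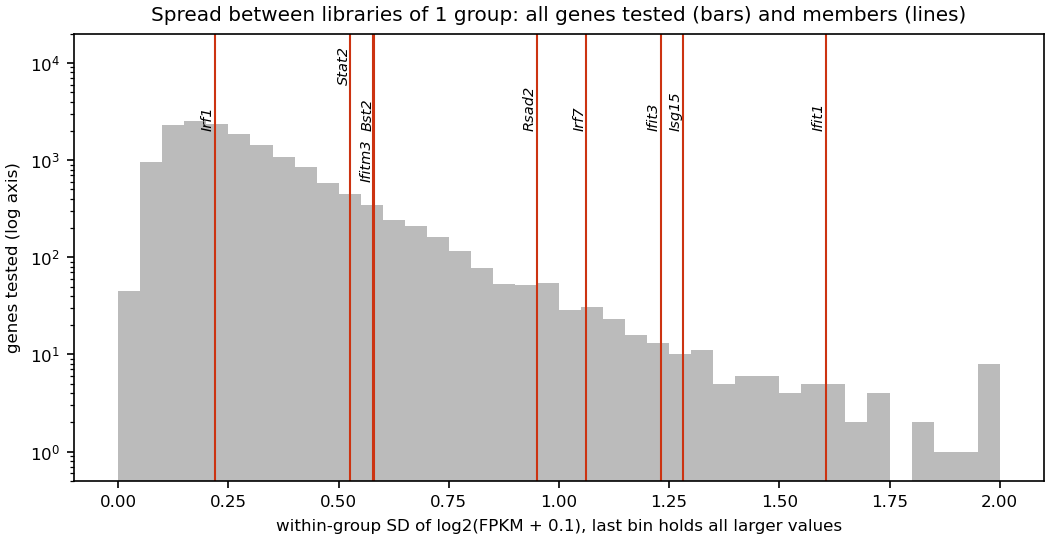
Number of the 15937 genes tested (log axis) by within-group standard deviation of log2(FPKM + 0.1), with the 9 genes as red lines. *Irf1* lies in the bulk of the genes at 0.22, while *Isg15*, *Ifit1*, *Ifit3*, *Irf7* and *Rsad2* lie in the far tail between 0.95 and 1.61.

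The libraries kept much the same order from gene to gene. Control 4 was the lowest library for 5 of the 9 genes. The correlation of each gene with the mean of the other 8 over the 8 libraries, given as a description, was 0.96 for *Stat2*, 0.93 for *Bst2* and *Ifit3*, 0.90 for *Irf7*, 0.89 for *Rsad2*, 0.88 for *Isg15*, 0.87 for *Ifit1* and 0.81 for *Irf1*. For *Ifitm3* it was 0.23. These libraries share their scaling, and no gene is an independent replicate of another.

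The set of control 1, control 2 and cKO 1 was named after the values were seen. It was the second most common of the 56 possible sets over all genes, after control 1, control 3 and cKO 1 at 6.47%. On TPM, which rescales each library to the same total, 5 of the 9 genes kept these 3 libraries on top and 2.56% of all genes had them there. With each library centred on its median gene, or scaled to its total on all genes or on non-mitochondrial genes, 7 of the 9 kept them. Of all genes, 5.59, 4.59 and 4.31% had them on top under these scalings, in that order. Without control 1, control 2 and cKO 1 were the 2 highest libraries for 8 of the 9 genes, *Ifitm3* being the exception, against 7.34% of all genes tested. Since these were whole testes, a difference in the number of cells that express a gene and one in RNA per cell cannot be told apart.

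The 5 genes whose levels over the 8 libraries were most like the mean of the 9 were *Oas2* (correlation 0.98), *Psmb9* (0.98), *Cpt1c* (0.97), *Irgm2* (0.95) and *Irgm1* (0.95). *Oas2*, an antiviral sensor of double-stranded RNA, had 1.15, 2.37, 0.589 and 0.535 FPKM in the controls and 2.11, 1.18, 1.07 and 0.781 FPKM in the cKO mice. *Psmb9*, a subunit of the immunoproteasome, had 0.855, 1.07, 0.472 and 0.450 FPKM in the controls and 1.03, 0.770, 0.713 and 0.628 FPKM in the cKO mice. *Irgm2* and *Irgm1* are GTPases of the interferon-gamma response. *Cpt1c*, a carnitine palmitoyltransferase homologue, varied less, between 4.28 and 5.99 FPKM.

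Many of a list of 50 other interferon-stimulated genes had the same 3 libraries on top. Of the 44 that were tested, 25 had control 1, control 2 and cKO 1 as their 3 highest libraries, and without control 1, 32 of 44 had control 2 and cKO 1 on top. The count was 24 after centring on the median gene, 19 and 16 after scaling to the total on all or on non-mitochondrial genes, and 11 on TPM. The shares over all genes were 5.59, 4.59, 4.31 and 2.56% in that order. *Usp18*, the protease that removes ISG15 and holds back the receptor, had 6.92, 7.51, 2.59 and 1.14 FPKM in the controls and 8.54, 2.31, 3.23 and 1.65 FPKM in the cKO mice. *Rtp4*, *Cmpk2* and *Ube2l6* were among the others, chosen after their values were seen. *Rtp4* ran from 1.55 FPKM in control 4 to 11.9 FPKM in cKO 1, and *Cmpk2* from 1.26 FPKM in control 4 to 4.67 FPKM in control 1. *Ube2l6*, which encodes the enzyme that passes ISG15 to its targets, was highest in control 1 at 31.4 FPKM and lowest in control 4 at 8.19 FPKM.

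None of the 44 passed an adjusted p below 0.05, and 1, or 0 without control 1, had an unadjusted p below 0.05: *Oas1c*, an oligoadenylate synthetase gene, was higher in the cKO mice (log2 fold change 0.49, unadjusted p = 0.0390, limma adjusted p = 0.433). The median log2 fold change was 0.04. *Trafd1*, a negative regulator of innate signalling, and *Samd9l* came next, at -0.27 (limma adjusted p = 0.521) and 0.44 (limma adjusted p = 0.554). The ISRE core was found in 10 of the 32 tested genes of this list with a promoter entry (31.2%).

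**Figure D5:**
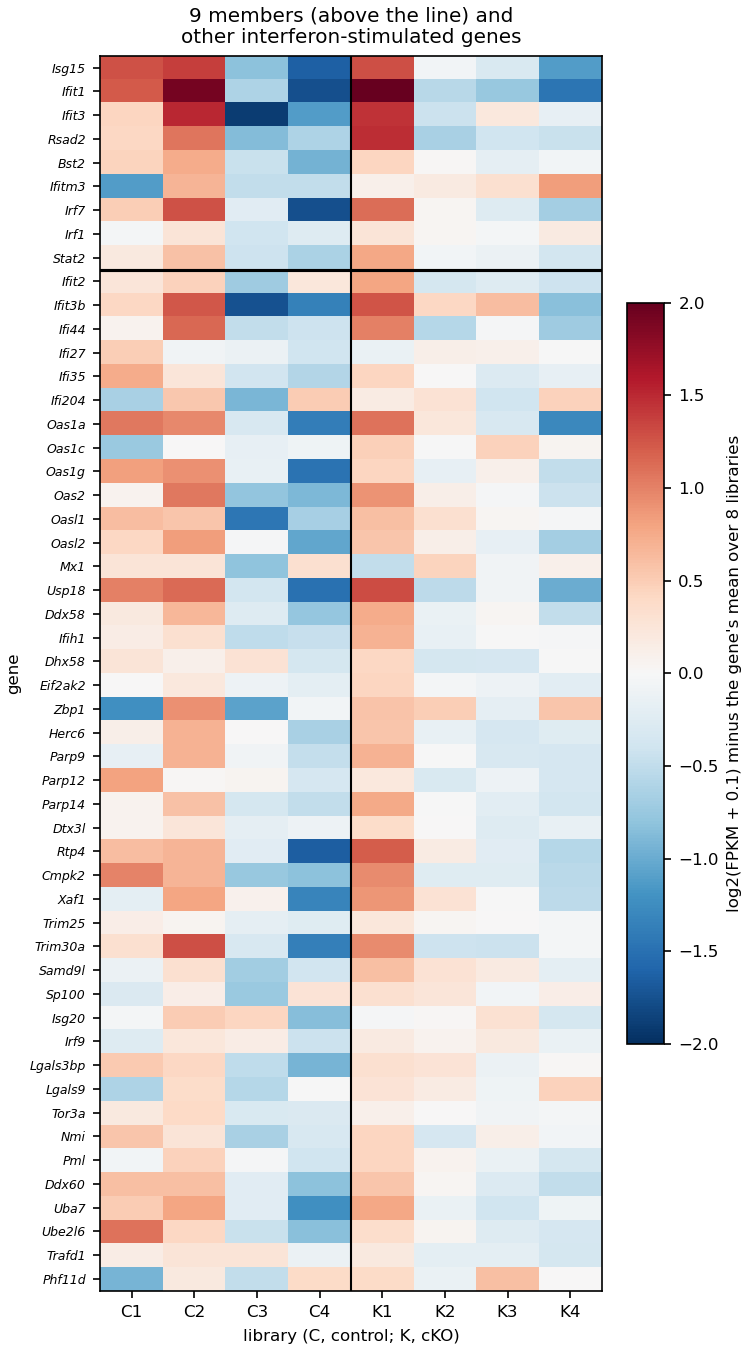
Level of the 9 genes (above the line) and of the other interferon-stimulated genes tested, 1 of which is not drawn, as log2(FPKM + 0.1) minus the gene's mean over the 8 libraries (colour, -2 to 2), in control (C) and cKO (K) libraries. Columns C1, C2 and K1 are mostly red and C3 and C4 mostly blue, and *Ifitm3* is an exception above the line.

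The genes that interferon-gamma induces followed in part. Of the 18 listed, 17 were tested and 5 had the same 3 libraries on top: *Gbp3*, *Gbp6*, *Irgm1*, *Irgm2* and *Iigp1*. Without control 1, control 2 and cKO 1 were the 2 highest libraries for most of the 17. The exceptions were *Tgtp1*, *Cxcl10*, *Ciita*, *Icam1* and *Socs1*. *Gbp3*, a guanylate-binding protein gene, had 15.7, 17.1, 8.35 and 4.75 FPKM in the controls and 16.6, 8.79, 8.77 and 7.83 FPKM in the cKO mice. *Cxcl10*, a chemokine gene known as a target of interferon-gamma, did not follow: it had 1.02, 0.833, 1.11 and 0.705 FPKM in the controls and 0.527, 0.640, 0.263 and 0.288 FPKM in the cKO mice, with every cKO library below every control. Its log2 fold change was -0.99 (standard error 0.27, unadjusted p = 0.00436, limma adjusted p = 0.233). It was the only gene of this list with an unadjusted p below 0.05. The median of the list was 0.17, and 11 of its 13 genes with a promoter entry held an ISRE core (84.6%).

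The ligands themselves were almost unseen. Of 21 interferon genes of types I, II and III, 17 had 0 fragments in all 8 libraries, and the other 4 had 35 fragments in all. *Ifnk* held 27 of these, in 6 libraries, *Ifnl2* held 5 in 4 libraries, *Ifnb1* 2 and *Ifng* 1. Summed over the 21 genes the level was 0 to 0.455 FPKM in the controls and 0.303 to 0.447 FPKM in the cKO mice, and control 3 had none. *Ifnk* alone was tested (log2 fold change 0.78, limma adjusted p = 0.671). At this depth a difference in ligands was not detectable.

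The receptors and JAK-STAT genes were well measured. All 12 of the list were tested. In 4 of the 12 the level was higher in the cKO mice at an unadjusted p below 0.05 and in none was it lower, but none passed adjustment. Over all genes tested 6.23% were higher at that level. Without control 1 the number was 3 of 12, and at that level 8.92% of all genes were then higher. *Il10rb*, the shared chain of the interferon-lambda receptor, had 3.37, 4.35, 4.40 and 5.42 FPKM in the controls and 5.24, 6.15, 6.09 and 8.38 FPKM in the cKO mice (log2 fold change 0.55, unadjusted p = 0.0111, limma adjusted p = 0.304), and without control 1 its log2 fold change was 0.43. *Stat3* had 11.8, 12.5, 11.0 and 11.8 FPKM in the controls and 14.1, 13.2, 13.5 and 15.5 FPKM in the cKO mice, without overlap (log2 fold change 0.26, limma adjusted p = 0.368). For *Ifngr1* and *Ifnlr1*, receptor chains for interferon-gamma and interferon-lambda, the log2 fold changes were 0.34 and 0.37 (limma adjusted p = 0.378 and 0.433). The summed level was 127.8 to 148.4 FPKM in the controls and 148.6 to 168.2 FPKM in the cKO mice.

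Of 18 sensors and adaptors 17 were tested, and none had an unadjusted p below 0.05 (median log2 fold change 0.12). The smallest p-values were those of *Ticam1*, an adaptor of toll-like receptor 3 (0.41, limma adjusted p = 0.560), *Tlr7*, a receptor for single-stranded RNA (0.64, limma adjusted p = 0.597), and *Zbp1*, a sensor of Z-form nucleic acid (0.72, limma adjusted p = 0.615). The cytosolic RNA sensors *Ddx58* and *Ifih1*, which also stand on the list of interferon-stimulated genes, had the 3 libraries above on top, with *Ddx58* at 4.89, 6.86, 3.56 and 2.45 FPKM in the controls and 7.26, 3.90, 4.42 and 3.02 FPKM in the cKO mice. Of the other interferon regulatory factors 5 of 6 were tested, and of the negative regulators 8 of 9, again with no unadjusted p below 0.05. The median log2 fold changes were 0.24 and -0.02. *Irf2*, a factor that competes with IRF1, did not overlap between the groups, at 0.960 to 1.34 FPKM in the controls and 1.35 to 1.54 FPKM in the cKO mice (limma adjusted p = 0.634). *Irf3*, the factor that starts the response, was among the genes with the 3 libraries on top, from 28.6 FPKM in control 4 to 54.2 FPKM in control 1.

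In the relatives of *Ifitm3* that were tested control 1 was also the lowest library. *Ifitm1* had 2.02, 4.89, 2.40 and 4.63 FPKM in the controls and 4.76, 5.38, 4.50 and 8.13 FPKM in the cKO mice (log2 fold change 0.75, unadjusted p = 0.0302, limma adjusted p = 0.406). *Ifitm2* had 0, 5.14, 4.49 and 7.92 FPKM in the controls and 5.28, 10.7, 9.05 and 9.80 FPKM in the cKO mice, where 0 fragments in control 1 allow up to 0.350 FPKM at 3 fragments. Without control 1 the log2 fold changes of *Ifitm1* and *Ifitm2* were 0.53 and 0.56, with unadjusted p-values of 0.0759 and 0.0546 (limma adjusted p = 0.400 and 0.356). The family members are alike in sequence, so counts can be split between them. The other 4 *Ifitm* genes listed were below the filter on low values.

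Macrophage markers had another order of libraries than the interferon genes. Of 10 macrophage markers 7 were higher in the cKO mice at an unadjusted p below 0.05, and 5 without control 1, and none passed adjustment. Over all genes tested 6.23% were higher at that level, and 8.92% without control 1. The smallest p-values were those of *C1qc* (log2 fold change 0.88, limma adjusted p = 0.221), *Lyz2* (0.76, limma adjusted p = 0.277) and *Csf1r* (0.72, limma adjusted p = 0.278). *Adgre1*, the gene of the F4/80 antigen, had 1.30 to 1.53 FPKM in the controls and 1.35 to 2.13 FPKM in the cKO mice. The 10 markers summed to 23.0, 38.5, 28.8 and 40.9 FPKM in the controls and 47.1, 52.3, 44.8 and 60.1 FPKM in the cKO mice. Control 1, among the highest for 7 of the 9 interferon genes, had the lowest macrophage sum. None of the 10 macrophage markers had the 3 libraries on top, where 5.39% of all genes tested did. With only 10 markers this count cannot be told apart from that share.

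The 6 endothelial markers summed to 5.98, 11.0, 7.34 and 13.3 FPKM in the controls and 12.9, 12.3, 12.6 and 15.6 FPKM in the cKO mice, with 2 higher at an unadjusted p below 0.05 (*Cdh5*, log2 fold change 0.72, and *Pecam1*, 0.62). Without control 1 this was 1 gene, *Cdh5* at 0.42. The shares over all genes tested were 6.23% and, without control 1, 8.92%. For macrophage and endothelial sums, as for *Ifitm3*, control 1 was lowest and cKO 4 highest. The sums of the red blood cell markers (10.8 and 46.7 FPKM) and of the receptors and JAK-STAT genes had the same lowest and highest libraries. The part of macrophages and endothelial cells in the *Ifitm3* values was not tested. Of the lymphocyte markers *Cd3e*, a chain of the T cell receptor complex, reached at most 0.523 FPKM.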

How the data were processed

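RNA was measured in whole testes of 4 control and 4 cKO mice. The labels name a column kit, 1.3 µg of total RNA and a SMARTER mRNA library kit, while the study's methods name Trizol and give tamoxifen days a little earlier than the labels. The authors deposited FPKM values for 54532 genes, and the 8 files per library hold equal values. The submitters' processing notes name GRCm38 and mm10; the aligner, counter and use of strand are not given in the sources used here. The gene starts and ends of all 9 members equalled GENCODE vM21.

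FPKM multiplied by gene length gave whole fragments (tolerance 0.02) in at least 99.986% of values above 0, which gave the depths. Test: limma 3.58.1 (R 4.3.3; lmFit, eBayes with trend) on log2(FPKM + 0.1), 4 against 4, no covariates, over the protein-coding genes that averaged more than 0.1 FPKM in the 8 libraries, with Benjamini-Hochberg adjustment over all of them; the study's filter, a mean above 1 in both groups, would drop *Rsad2*. A call needed an adjusted p under 0.05 together with a log2 fold change past 1 in either direction. Such fold changes understate those of low genes. Promoters came from RefSeq (all 9 members matched). The procedure was also run on simulated data, with less spread set between libraries than most of the 9 genes had. That run therefore does not show how the test behaves on these genes. The least different pair of replicates differed by 3.94 times the sampling variance.

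The members and gene lists were chosen with earlier results of these data known. Named are the 9 members, the 3 genes of smallest p in a list, the first gene of each marker list and the 5 genes most alike; others were chosen after their values were seen. Lists share some genes, and a few of their genes are not reported here. Alternatives were other pseudocounts, filters, biotypes, scalings and weights, voom, eBayes without trend, a replicate block and each library left out.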

Additional observations from a re-analysis of the deposited data

Results flagged for a closer look

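In *Ifit1*, cKO replicate 1 stood far from its group, at 4.72 FPKM against 0.333 to 0.707 FPKM in the other 3 cKO libraries. In *Rsad2* the same library stood apart, at 1.46 FPKM against 0.260 to 0.328 FPKM. Control replicate 1 had 0.464% of its fragments on mitochondrial genes, while the other 3 controls had 2.97 to 3.39%. In each case the gap to the nearest library, divided by the range of the group, passed the 95% critical value of Dixon's test for 4 values. 20 groups were tested in this way and 3 were past it, where chance gives about 1 in 20.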

How the results depend on the processing

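None of the 9 genes was called, or had an adjusted p below 0.05, under any of the 19 alternatives (18 for *Rsad2*, which the study's filter drops). With an unadjusted p below 0.05 there was 1 on TPM, 1 with the replicate block, and 0 to 2 with each library left out, the 2 without control replicate 2. The direction held in *Ifitm3* (0.35 to 1.06) and *Irf1* (0.10 to 0.34) under every alternative. With each library left out, the log2 fold changes ranged from -0.66 to 0.35 for *Isg15*, -1.12 to 0.19 for *Ifit1*, -0.0033 to 1.13 for *Ifit3*, -0.49 to 0.35 for *Rsad2*, -0.20 to 0.36 for *Bst2*, -0.46 to 0.55 for *Irf7* and -0.11 to 0.34 for *Stat2*, so each changed sign. Array weights turned *Bst2* to -0.13, *Irf7* to -0.39 and *Stat2* to -0.12. *Rsad2*, at about 0, turned to 0.0105 with a pseudocount of 1, 0.0002 with 0.01, 0.0337 with voom and 0.0738 on TPM. The number of genes called over all genes, 2, became 4 with a pseudocount of 1, 8 with all biotypes, 1 on TPM, 87 with array weights, 0 with no filter, 0 without the eBayes trend, 0 with the replicate block, and 0 to 6 with each library left out, 6 without control replicate 4. The cause was not tested.

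The scalings of the library order, and its count and the values of listed genes without control replicate 1, were chosen after seeing the data. The replicate numbers are shared, and deviations of same-numbered libraries correlated at 0.217, 0.127, 0.0512 and 0.278, below 0.1 in 1 pair. Controls 1, 2 and 4 each correlated best with the cKO library of their own number, and control 3 with cKO 1. Whether the numbers pair the mice is not given in the sources used here. The main fit therefore had no pairing, and the replicate block was an alternative. Depth limits the low genes: *Ifit3* rested on 5 fragments in control 3.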

Other observations

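None of the markers of other testis cells passed adjustment. At an unadjusted p below 0.05, 6.23% of all genes tested were higher in the cKO mice, and 8.92% without control replicate 1. Of 6 Leydig cell markers 3 were higher at an unadjusted p below 0.05: *Lhcgr*, the receptor for luteinizing hormone (log2 fold change 1.28), and *Hsd3b1* (1.02) and *Cyp11a1* (0.64), enzymes of steroid synthesis, with limma adjusted p between 0.212 and 0.387. Without control replicate 1 this was 2, and *Lhcgr* (0.96) and *Hsd3b1* (0.78) were not among them. *Cyp17a1* had 0.331 to 0.775 FPKM in the controls and 0.572 to 0.931 FPKM in the cKO mice. Of 5 peritubular myoid markers 1 was, *Acta2* (0.57, limma adjusted p = 0.280), and *Myh11* was at 0.15 (limma adjusted p = 0.832). Of 6 Sertoli cell markers, *Sox9* included (0.08), none was. Of 5 red blood cell genes 1 was, *Hbb-bs* (0.87, limma adjusted p = 0.420), and without control replicate 1 these 3 counts were 2, 2 and 0.

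Among germ cell genes *Stra8*, which germ cells switch on at the start of meiosis, was lower in the cKO mice (log2 fold change -1.46, unadjusted p = 0.00683, limma adjusted p = 0.273), the only 1 of 6 spermatogonia markers below an unadjusted p of 0.05. *Zbtb16* was at 0.08. Of 6 pachytene markers 3 were lower at that level, among them *Adam3* (-0.98, limma adjusted p = 0.161) and *Ldhc* (-0.73, limma adjusted p = 0.304). Over all genes tested 4.86% were lower at that level. *Hist1h1t* was the 1 that was higher (0.96, limma adjusted p = 0.271), but it rested on only 3 to 5 fragments per control library and 5 to 13 per cKO library. The pachytene sums were 1372, 1236, 1450 and 917 FPKM in the controls and 1115, 874, 849 and 722 FPKM in the cKO mice. *Prm1* and the other spermatid markers were near 0 in all libraries.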
